A study of Mus musculus with 3 samples.

Results

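Immunoglobulin variable (V) gene usage was examined in spatial transcriptomes of mouse thymus. The genes described here are those whose symbol begins with *Ighv*, *Igkv* or *Iglv* and that had at least 20 UMIs (unique molecular identifiers, which count captured RNA molecules) summed over all spots of the 3 sections. They were chosen by that summed UMI count and number 11 of the 348 V gene identifiers listed with the counts, which hold 54838 genes in all. The 11 are 9 kappa light chain genes (*Igkv*) and 2 lambda light chain genes (*Iglv*), and no heavy chain gene (*Ighv*) reached the minimum. Since all 3 sections entered the choice, their totals are a description and no test was made of them. Just inside the minimum lay *Igkv13-84* with 21 UMIs and *Igkv3-2* with 22, and just outside it lay *Igkv1-110* with 19 and *Igkv10-96* and *Igkv12-46* with 17 each. A further 145 V genes had 1 to 19 UMIs and 192 had none.

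The sections came from female C57BL/6 mice, 2 of them *Trp53*-/- (KO), named KO1134 (17 weeks) and KO1308 (21 weeks), and 1 *Trp53*+/+ (WT), named WT1101 (17 weeks). The study describes perfusion with saline under pentobarbital for the mice of its single-cell assays. Its spatial methods, which begin with frozen embedding of the tissue, do not restate that step. The knockout is germline, so all cells lack *Trp53*, and breeding began from KO and WT mice of different suppliers. Permeabilisation of the tissue ran slightly longer in KO than in WT sections, so genotype and permeabilisation time cannot be told apart. The sample sheet of the study lists the WT section and the section of one KO mouse only, and the bin number and depth stated for its KO section lie nearer to the section labelled KO1134 than to the one it names, so the KO sections are called here by their labels. Counts were summed in bins of 27 µm, which gave 12009 tissue bins with 31120116 UMIs in KO1134, 16141 bins with 17585801 UMIs in KO1308 and 27106 bins with 40576115 UMIs in WT1101. The mean depth was 2591, 1090 and 1497 UMIs per bin, and a bin can hold several cells of different types. *Trp53* was at 17.0 CPM (UMIs per 1000000 tissue UMIs) in KO1134, 25.1 in KO1308 and 79.9 in WT1101, and whether the counted reads lie in the deleted part of the gene was not tested. The sections carried genes of the thymus, from its epithelium (*Prss16*, *Psmb11*) and its developing T cells (*Arpp21*, *Cd8b1*, *Ptcra*, *Themis*), with all 6 detected in each and a summed level of 645, 1425 and 2081 CPM. Spot names are positions on the slide, and 148897 to 523094 of them recur between pairs of sections.

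A V gene is one of many alternative segments that a developing B cell joins to a short J segment (and, in the heavy chain, a D segment) before the result is spliced to a constant gene. Each B cell and its daughters therefore carry 1 heavy and usually 1 light chain V gene, and a V gene that is common in a tissue can mark an expanded clone or a segment that is chosen often. Plasma cells transcribe these genes at very high level. The thymus holds a small population of B cells in its medulla and plasma cells as well. Capture by the poly(A) tail reads the end of a transcript where the constant gene lies, so few reads reach the V segment, and intervals below are 95% intervals that cover counting error only.

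The 3′ ends of the V genes on which the values turn are shown because they encode the start of the antigen-binding loop at the join to J, and because they show how alike genes of a family can be over a stretch. The sequences are the last bases of the GENCODE M21 transcripts (GRCm38), on the sense strand, from 30 bases before the codon of the conserved second cysteine, which is in capitals. The codon was found by the motif TANTNNTGT or TANTNNTGC, searched on the sense strand in the last 80 bases, which 285 of 348 V transcripts (81.9%) held; *Iglv3* did not hold it and is named only.
Igkv8-28: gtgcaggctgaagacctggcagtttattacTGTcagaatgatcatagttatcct
Igkv8-19: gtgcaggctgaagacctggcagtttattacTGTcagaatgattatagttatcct
Igkv8-24: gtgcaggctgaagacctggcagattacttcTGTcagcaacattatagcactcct
Igkv3-1: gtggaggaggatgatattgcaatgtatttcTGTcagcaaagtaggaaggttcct
Igkv3-2: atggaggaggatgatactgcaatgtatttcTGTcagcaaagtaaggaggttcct
Igkv3-4: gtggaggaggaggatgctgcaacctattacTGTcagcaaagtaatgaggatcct
Igkv14-111: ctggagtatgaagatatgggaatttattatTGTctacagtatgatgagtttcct
Igkv5-43: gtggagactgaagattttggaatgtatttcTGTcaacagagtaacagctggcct
Iglv1: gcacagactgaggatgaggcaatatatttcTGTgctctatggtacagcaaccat
Iglv2: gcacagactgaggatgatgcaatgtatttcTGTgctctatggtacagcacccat
Over these windows *Igkv8-28* and *Igkv8-19* share 53 of 54 bases, *Igkv3-1* and *Igkv3-2* share 50, and *Iglv1* and *Iglv2* share 51. Over whole transcripts the relative nearest to *Igkv8-28* is *Igkv8-19*, at 9 edits, and 81.9% of the 50-base stretches of *Igkv8-28* occur in no other GENCODE transcript. That share was 100% for *Igkv14-111* and *Iglv3*, 77.8% for *Iglv1*, and lowest for *Igkv5-43* (48.8%), *Igkv17-127* (49.4%) and *Igkv13-84* (51.7%), whose reads could be split with a near copy.

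By position, *Igkv8-28* has 2 exons at chr6:70143593-70144166 on the minus strand, 578 kb upstream of the first kappa J segment (*Igkj1*). *Igkv3-1* (chr6:70703578-70704177), *Igkv3-2* (chr6:70698449-70699067) and *Igkv3-4* (chr6:70671788-70672377) are on the plus strand and lie 18.4, 23.5 and 50.2 kb from it. *Igkv12-44* (chr6:69814631-69815154) and *Igkv5-43* (chr6:69823355-69823943) lie 907 and 899 kb away on the minus strand. *Igkv13-84* (chr6:68939602-68940067), *Igkv14-111* (chr6:68256389-68256869) and *Igkv17-127* (chr6:67861153-67861659) lie 1783, 2466 and 2861 kb away on the plus strand. *Iglv1* (chr16:19085017-19085500) and *Iglv3* (chr16:19241207-19241690) are on the minus strand of the lambda locus, and *Iglv1* lies within an intron of *2010309G21Rik*, a gene on the opposite strand.

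*Igkv8-28* was the one kappa V gene that dominated a section. It had 153 UMIs in WT1101, 0 in KO1134 and 0 in KO1308, on tissue and off it, apart from 4 further UMIs outside the WT tissue. The reads behind these counts, their strand and their junctions were not examined, and whether the KO mice carry an allele whose reads are not counted for this gene was not tested. The WT section therefore stood apart from both KO sections. In WT1101 the level was 3.77 CPM (3.2 to 4.42), which was at least 39.1-fold that in KO1134 and at least 22.1-fold that in KO1308 against a floor of 3 UMIs per section. Among the 9 kappa members it made up 73.2% (66.7 to 79.1) of UMIs in WT1101, and over all 160 *Igkv* genes, without a minimum, 54.6% (48.6 to 60.6). The floor of 3 UMIs corresponds to 0.932% of all *Igkv* UMIs in KO1134 and 1.58% in KO1308. Kappa transcripts were present in all 3 sections. *Igkc*, the kappa constant gene, had 83175 UMIs in KO1134, 46508 in KO1308 and 38925 in WT1101. The WT ratio to *Igkc* corresponds to 327 and 183 UMIs of *Igkv8-28* in KO1134 and KO1308. That ratio comes from the 153 UMIs through which the gene passed the minimum, so it is a description only. Of the 14440 genes with at least 100 UMIs in the WT tissue, *Igkv8-28* was the one gene with 0 UMIs in the tissue of both KO sections. The same count, of genes with at least 100 UMIs in a section and 0 in both others, was 1 of 14497 for KO1134 and 15 of 13547 for KO1308, none of them a V gene. The nearest relative *Igkv8-19* had 0 UMIs in all 3 sections, and the *Igkv8* gene with the next most, *Igkv8-24*, had 6, 1 and 7 UMIs in KO1134, KO1308 and WT1101.

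**Figure D1:**
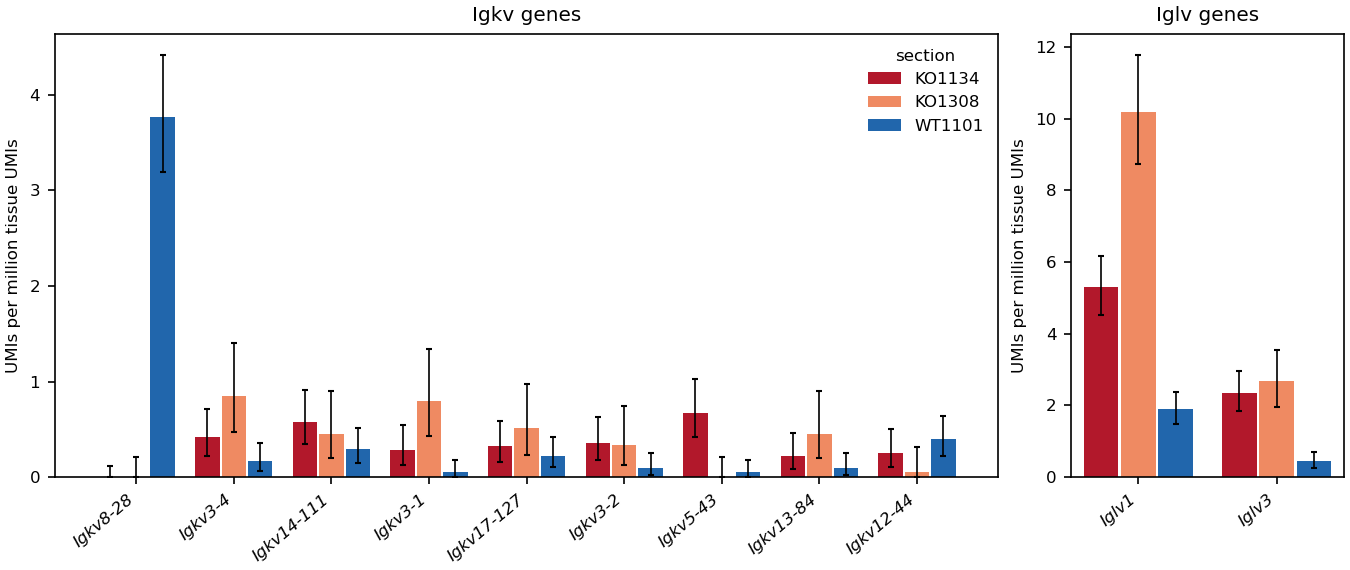
Levels of the 11 V genes in each section, in CPM (vertical axes, linear, with separate scales for kappa genes on the left and lambda genes on the right), with bars for KO1134, KO1308 and WT1101 and exact 95% Poisson intervals. *Igkv8-28* stands at 3.77 in WT1101 and 0 in both KO sections, and *Iglv1* at 5.30, 10.2 and 1.90 in KO1134, KO1308 and WT1101.

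The other 8 kappa genes each had between 0 and 21 UMIs in a section. *Igkv14-111* had 18 UMIs in KO1134, 8 in KO1308 and 12 in WT1101, or 0.578, 0.455 and 0.296 CPM. *Igkv17-127* had 10, 9 and 9 UMIs, or 0.321, 0.512 and 0.222 CPM, so both genes were above WT in each KO section by less than their counting error. *Igkv3-4* had 13, 15 and 7 UMIs, *Igkv3-1* 9, 14 and 2, and *Igkv3-2* 11, 6 and 4, with more in each KO section than in WT1101 although the WT tissue held the most UMIs. *Igkv12-44* went the other way, with 8, 1 and 16 UMIs. *Igkv5-43* had 21 UMIs in KO1134, 0 in KO1308 and 2 in WT1101, and was the largest kappa member of KO1134 with 21.6% (13.9 to 31.2) of the member UMIs. *Igkv13-84* had 7, 8 and 4 UMIs. By the rule that a share in one section must be at least 3 times that in each other section, *Igkv8-28* was skewed to WT1101 and *Igkv5-43* to KO1134, and the other 7 kappa members to none.

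Beside the WT section, 7 of the 11 genes were at least 2-fold higher in CPM in KO1134, where 18.9% of the 22378 genes with at least 20 UMIs were, and 7 of 11 in KO1308, where 25.8% of all genes were. The genes common to both were *Igkv3-1*, *Igkv3-2*, *Igkv3-4*, *Igkv13-84*, *Iglv1* and *Iglv3*, joined by *Igkv5-43* in KO1134 and *Igkv17-127* in KO1308. At least 2-fold lower were *Igkv8-28* in KO1134 (8.38% of all genes) and *Igkv8-28*, *Igkv12-44* and *Igkv5-43* in KO1308 (5.28% of all genes). The last of these rests on 0 against 2 UMIs, both within the floor of 3 UMIs, so no fold is given. The median ratio to WT over the 11 genes was 2.42 in KO1134 and 3.46 in KO1308, beside 1.07 and 1.21 over all genes tested. Both comparisons share the single WT section. Counting error was wide for the small kappa genes: the ratio of *Igkv3-1* was 5.87 (1.21 to 55.8) in KO1134 and 16.2 (3.71 to 146) in KO1308, that of *Igkv3-4* was 2.42 (0.898 to 7.17) and 4.94 (1.90 to 14.3), and that of *Igkv5-43* in KO1134 was 13.7 (3.35 to 120). *Igkv3-1* and *Igkv5-43* had 2 UMIs each in WT1101, below the floor of 3 UMIs, so the size of their ratios is uncertain. The interval held 1 for *Igkv14-111* and *Igkv17-127* in both KO sections, for *Igkv3-4*, *Igkv12-44* and *Igkv13-84* in KO1134, and for *Igkv3-2* in KO1308, at 3.46 (0.821 to 16.7). *Igkv5-43* passed the minimum through KO1134, which held 21 of its 23 UMIs, so its excess there is a description of how it was chosen, as is that of *Igkv8-28* in WT1101. *Igkv3-1*, *Igkv3-2* and *Igkv13-84* had 26, 22 and 21 UMIs in all, of which 2, 4 and 4 were in WT1101. They passed the minimum mainly through the KO sections. The counts of members that were higher in KO and the member medians therefore describe the choice in part.

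The constant genes moved as well, so the V genes were set against them. *Igkc* was at 2673, 2645 and 959 CPM, a ratio to WT of 2.79 (2.75 to 2.82) in KO1134 and 2.76 (2.72 to 2.79) in KO1308. Over all *Igkv* genes except *Igkv8-28*, V UMIs per 1000 *Igkc* UMIs were 3.87 (3.46 to 4.32) in KO1134, 4.09 (3.53 to 4.71) in KO1308 and 3.26 (2.72 to 3.88) in WT1101. The ratio to WT of that quantity was 1.19 (0.963 to 1.47) and 1.25 (0.995 to 1.58), whose intervals hold 1. *Igkv8-28* on its own added 3.93 (3.33 to 4.61) per 1000 *Igkc* UMIs in WT1101. With it the order reversed: all *Igkv* genes together came to 7.19 per 1000 *Igkc* in WT1101, and the KO sections stood at 0.538 (0.457 to 0.634) and 0.568 (0.470 to 0.685) of that. In CPM the direction depended on the minimum of 20 UMIs, since the 9 kappa members were at 3.12, 3.47 and 5.15 CPM, lower in KO, and all 160 *Igkv* genes at 10.3, 10.8 and 6.90 CPM, higher in KO. In such tissue counts, more cells of the B lineage and more RNA per cell cannot be told apart.

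The heavy chain V genes were too sparse for any gene to be described on its own. All 185 *Ighv* identifiers together had 82 UMIs in KO1134, 54 in KO1308 and 45 in WT1101, spread over 45, 31 and 30 genes, and the highest, *Ighv1-82*, had 15 UMIs over all spots. Per 1000 UMIs of the heavy chain constant genes they came to 0.399 (0.317 to 0.495), 0.30 (0.225 to 0.391) and 0.390 (0.285 to 0.522), with ratios to WT of 1.02 (0.702 to 1.5) and 0.769 (0.508 to 1.17). In CPM the *Ighv* genes were higher in KO, by 2.38-fold (1.63 to 3.498) and 2.77-fold (1.83 to 4.21), as were the heavy chain constant genes, by 2.32-fold and 3.60-fold. *Ighv1*, the largest mouse family, held 59.8%, 50% and 53.3% of these UMIs. Pairing of a heavy with a light chain V gene could not be described. Bins with any *Ighv* UMI numbered 79, 49 and 43, of which 7, 3 and 5 also held an *Igkv* UMI, and bins with at least 2 UMIs of 1 *Ighv* gene numbered 3, 4 and 2.

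The lambda members were higher in both KO sections. *Iglv1* had 165 UMIs in KO1134, 179 in KO1308 and 77 in WT1101, which is 5.30 (4.52 to 6.18), 10.2 (8.74 to 11.8) and 1.90 (1.498 to 2.37) CPM. *Iglv3* had 73, 47 and 18 UMIs, or 2.35, 2.67 and 0.444 CPM. Both KO sections were above WT1101 for each gene, as they were for 8 of the 11 members and for 45.6% of all genes tested, with *Iglv1* higher in KO1134 and KO1308 than in WT1101 by 2.79-fold (2.12 to 3.71) and 5.36-fold (4.08 to 7.10) and *Iglv3* by 5.29-fold (3.12 to 9.41) and 6.02-fold (3.43 to 11). The split between them was similar, with *Iglv1* at 69.3% (63.0 to 75.1), 79.2% (73.3 to 84.3) and 81.1% (71.7 to 88.4) of the member UMIs. *Iglv2*, the remaining mouse lambda V gene listed, had 2, 5 and 7 UMIs. The lambda constant genes *Iglc1*, *Iglc2* and *Iglc3* differed little, at 482, 469 and 412 CPM in sum, with ratios to WT of 1.17 (1.14 to 1.20) and 1.14 (1.11 to 1.17). V UMIs of all 3 *Iglv* genes per 1000 *Iglc* UMIs were therefore 16.0 (14.0 to 18.2) in KO1134, 27.99 (24.5 to 31.8) in KO1308 and 6.10 (4.97 to 7.40) in WT1101, or 2.62 times (2.07 to 3.34) and 4.59 times (3.62 to 5.85) the WT value. This excess depended on the denominator. Per 1000 *Igkc* UMIs the *Iglv* genes were at 2.89 (2.53 to 3.27), 4.97 (4.35 to 5.65) and 2.62 (2.14 to 3.18), which is 1.10 times (0.870 to 1.40) the WT value in KO1134, an interval that holds 1, and 1.90 times (1.495 to 2.42) in KO1308. *2010309G21Rik*, whose span includes *Iglv1*, had 7592, 4426 and 6942 UMIs (1.43 and 1.47 times WT in CPM), and its exons do not overlap *Iglv1*; its part in the *Iglv1* values was not tested.

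Evenness was lower in the WT section, where *Igkv8-28* was abundant. The effective number of genes, the exponential of the Shannon entropy, gives how many equally common genes would yield the observed shares. Over the 9 kappa members it was 7.47 in KO1134, 6.01 in KO1308 and 2.94 in WT1101. Over all *Igkv* genes it was 47.0 of 67 genes seen in KO1134, 37.7 of 54 in KO1308 and 8.90 of 43 in WT1101, and the inverse Simpson index, which weighs common genes more, was 41.5, 33.6 and 3.26. The KO sections lay together and the WT section lay apart. Since UMIs differed (322, 190 and 280), the number of genes expected at 190 UMIs was computed, and it was 57.2, 54 and 35.7. With *Igkv8-28* left out, the effective number over the remaining 8 kappa members was 7.47, 6.01 and 6.40, with WT1101 between the KO sections. Over all *Igkv* genes without it the inverse Simpson index was 41.5, 33.6 and 21.9, and the genes expected at 127 UMIs were 49.4, 46.1 and 42.0, so there WT1101 was still lowest, by less. The largest single share without it was 6.52% (*Igkv5-43*) in KO1134, 7.89% (*Igkv3-4*) in KO1308 and 12.6% (*Igkv12-44*) in WT1101.

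**Figure D2:**
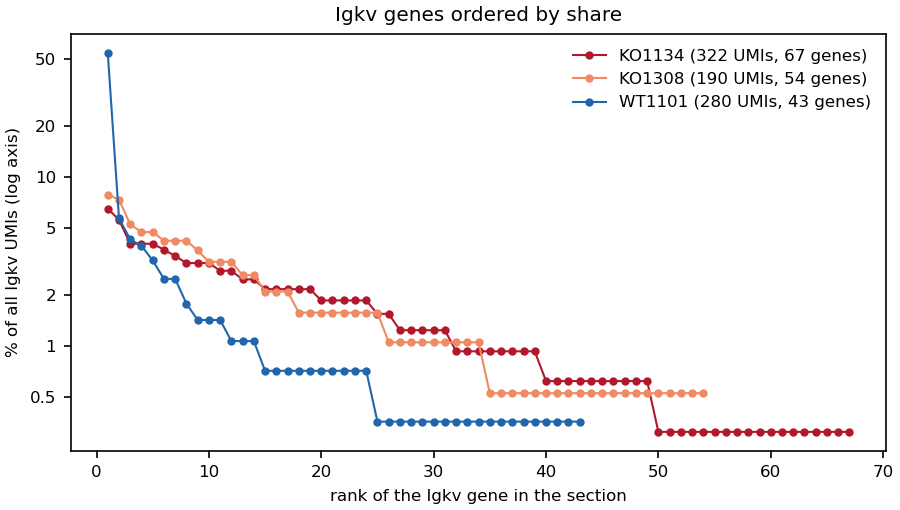
*Igkv* genes of each section ordered by their share of all *Igkv* UMIs (vertical log axis, percent) against rank, with a line for each section. The first gene of WT1101 (*Igkv8-28*, 54.6%) lies far above its second, and the KO sections start at 6.52% and 7.89% and fall off slowly.

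By family, which is less open to reads split between near copies, *Igkv8* held 58.6% of all *Igkv* UMIs in WT1101, against 3.11% in KO1134 and 2.11% in KO1308. *Igkv3* was the leading family in both KO sections, with 18.3% and 26.8%, and held 6.43% in WT1101, where *Igkv8-28* fills much of the total. Without that gene the *Igkv3* share in WT1101 was 14.2% (8.62 to 21.5), beside 18.3% (14.3 to 23.0) and 26.8% (20.7 to 33.7), intervals that overlap in KO1134 and, narrowly, in KO1308. *Igkv6* and *Igkv4* had 11.8% and 9.32% in KO1134 and 5.26% and 11.6% in KO1308. Usage spanned the whole kappa locus. Of all *Igkv* UMIs without *Igkv8-28*, the 6 genes within 100 kb of *Igkj1* took 14.6% (10.9 to 18.9), 20.0% (14.6 to 26.4) and 10.2% (5.56 to 16.9) in KO1134, KO1308 and WT1101. The 44 genes from 100 to 1000 kb took 34.8% (29.6 to 40.3), 23.7% (17.8 to 30.4) and 40.9% (32.3 to 50.02), with KO1308 below WT1101 and no overlap of their intervals. The 53 genes beyond 2000 kb took 32.9%, 38.4% and 34.6%, shares whose intervals overlap.

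In the tissue, *Igkv8-28* was spread over the WT section. Its 153 UMIs lay in 140 bins, the fullest bin held 3, and the 5 × 5 bin window (135 µm wide) with the most held 5 UMIs, or 3.27% of the total. Tiles of 37 bins (about 1 mm) with at least 500 *Igkc* UMIs numbered 25, and 23 of them held the gene, with a median of 4.42 per 1000 *Igkc* UMIs and a range of 0 to 8.05. The gene also followed *Igkc* across bins of different content. Per 1000 *Igkc* UMIs it was at 3.03 (2.05 to 4.33) in bins with 1 to 4 *Igkc* UMIs, 3.85 (2.77 to 5.23) with 5 to 19, 3.22 (2.23 to 4.50) with 20 to 49, and 4.60 (3.22 to 6.37) with 50 or more, and these intervals overlap. The sum of the other *Igkv* genes in WT1101 was at 2.53, 3.10, 3.13 and 2.17 in the same classes. Of these, 12 of the 153 UMIs (7.84%) lay in bins without *Igkc*, which made up 71.2% of tissue bins. In KO1134, where the gene had 0 UMIs in the whole section, 282 bins had 50 or more *Igkc* UMIs, 23719 in sum.

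**Figure D3:**
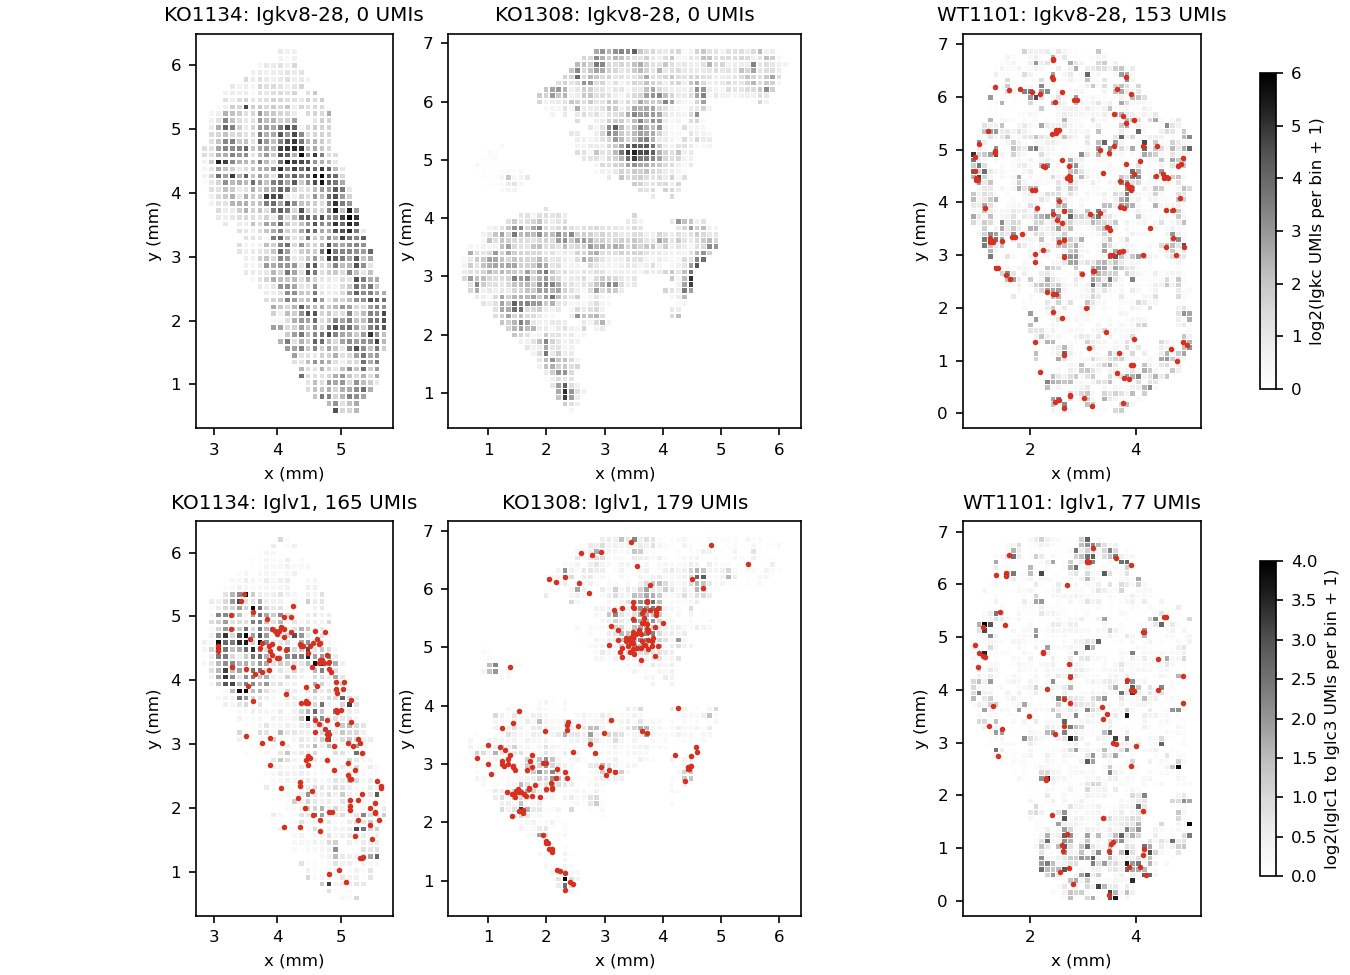
Maps of the 3 sections (axes in mm on the slide), with *Igkc* in the upper row and *Iglc1* to *Iglc3* in the lower row as grey squares (mean UMIs per bin over 4 × 4 bins, as log2 of the mean + 1) and each bin holding the V gene as a red point. *Igkv8-28* has 153 UMIs scattered over WT1101 and none in either KO section, and *Iglv1* has UMIs in all 3 (165, 179 and 77).

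Clustering was described by a pair index, which divides how often a pair of UMIs of the gene lies at a given distance by how often a UMI of the gene and one of a reference do. An index of 1 means that the gene is spread like the reference. *Igkv8-28* in WT1101 was the one kappa gene with at least 50 UMIs in a section. Against the other kappa members its index was 2.58 in the same bin, 1.96 in adjoining bins and 2.32 at a distance of 2 bins, and 1.08, 0.886 and 0.918 farther out, and these rest on few UMIs of the reference (56). Against *Igkc*, a reference chosen after the values were seen, it was 1.58 (14 pairs), 0.754 (16 pairs) and 1.66 (22 pairs), then 0.854, 0.924 and 0.926, with no steady fall. In the same bin it was 1.80 against all other *Igkv* genes and, against the kappa members, 4.04 with bins of 20 µm, so its size depended on the reference and the bin.

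*Iglv1* was also described, after the values were seen, against the constant genes of its locus. Against *Iglc1* to *Iglc3* its index in the same bin was 5.34 in KO1134 (24 pairs), 3.03 in KO1308 (13 pairs) and 3.30 in WT1101 (6 pairs), and in adjoining bins 2.07, 1.82 and 1.85. From 81 to 135 µm it was 1.33, 1.35 and 0.886. All 3 sections were thus above 1 in the same and adjoining bins, and the pair numbers were small. *Iglv3*, with 73 UMIs in KO1134, had an index of 10.2 in the same bin on 7 pairs and 0.299 in adjoining bins on 1 pair, too few to describe a distance. Among the *Iglv1* UMIs, 42.4% (34.8 to 50.3) in KO1134, 46.9% (39.4 to 54.5) in KO1308 and 48.1% (36.5 to 59.7) in WT1101 lay in bins with no *Iglc* UMI, and 5.45%, 6.70% and 22.1% in bins with no *Igkc* UMI. Of all tissue UMIs, 56.9%, 67.8% and 80.6% lay in bins with no *Iglc* UMI and 15.4%, 22.5% and 66.98% in bins with no *Igkc* UMI, so *Iglv1* was less frequent in such bins than tissue UMIs as a whole. With bins of 50 µm 17.0%, 25.8% and 23.1% lay in bins with no *Iglc* UMI.

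**Figure D4:**
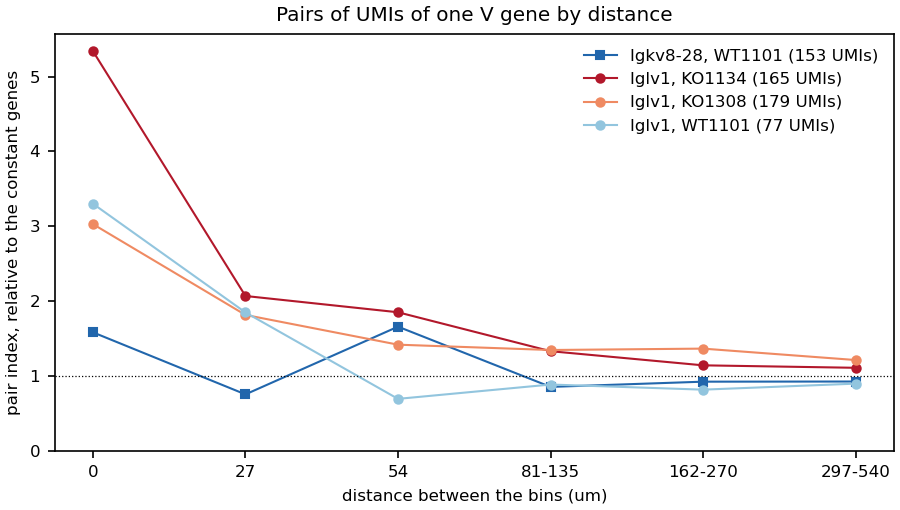
Pair index (vertical axis, linear, relative to the constant genes of the same locus) against the distance between bins in µm, for *Igkv8-28* in WT1101 and *Iglv1* in each section, with a dotted line at 1. *Iglv1* falls from 5.34, 3.03 and 3.30 in the same bin toward 1, and *Igkv8-28* stays between 0.754 and 1.66.

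In KO1134 the ratio of *Iglv1* to *Iglc* was lower in bins with more *Iglc*, and in KO1308 the intervals of the classes overlapped. Per 1000 *Iglc* UMIs *Iglv1* was at 10.4 (8.05 to 13.2) in KO1134 bins with 1 to 4 *Iglc* UMIs, 4.17 (2.47 to 6.6) with 5 to 19 and 2.63 (1.06 to 5.42) with 20 to 49, at 13.4 (10.6 to 16.8), 7.37 (4.13 to 12.2), 6.05 (1.25 to 17.7) and, on 1 UMI, 15.9 in the 4 classes of KO1308, and at 3.12, 1.84, 2.59 and 1.56 in WT1101. The classes are made from the denominator itself, and its part in this order was not tested. Per 1000 *Igkc* UMIs *Iglv1* was at 3.48, 3.77, 3.53 and 3.03 in KO1308, at 1.82, 1.41, 1.52 and 1.40 in WT1101, and at 2.42, 2.29, 1.08 and 1.86 in KO1134, with bins of 1 to 4, 5 to 19, 20 to 49 and at least 50 *Igkc* UMIs. Across 1 mm tiles of KO1134 with at least 500 *Iglc* UMIs, *Iglv1* ranged from 2.55 to 31.1 per 1000 *Iglc*: the 3 tiles of one column held 2.55, 3.597 and 4.48, and the other 6 held 14.3 to 31.1. Per 1000 *Igkc* UMIs the same 3 tiles held 1.44, 1.45 and 2.53. These lay within the range of 0.915 to 3.55 over the 14 tiles of KO1134 with at least 500 *Igkc* UMIs. Per 1000 *Iglc* UMIs 4 tiles of KO1308 ranged from 5.32 to 37.6, and 15 tiles of WT1101 from 1.63 to 7.83.

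**Figure D5:**
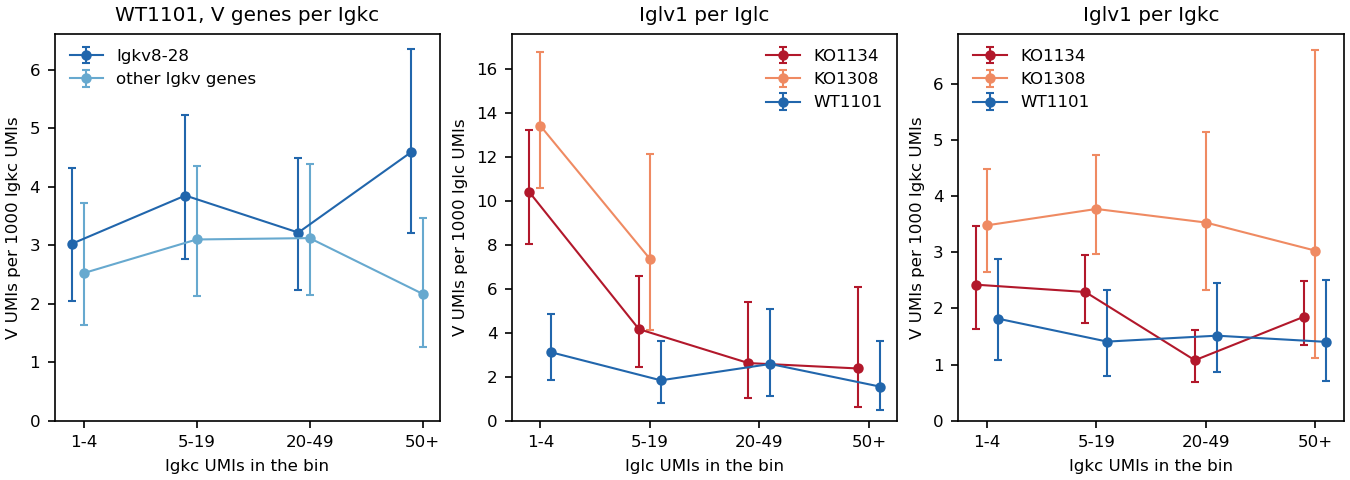
V UMIs per 1000 UMIs of a constant gene (vertical axes, linear, exact 95% Poisson intervals) against the UMIs of that constant gene in the bin, for *Igkv8-28* and the other *Igkv* genes in WT1101 (left), *Iglv1* per *Iglc* (middle) and *Iglv1* per *Igkc* (right) in each section, where the class holds at least 500 constant UMIs. *Igkv8-28* stays between 3.03 and 4.60, and *Iglv1* per *Iglc* falls from 10.4 to 2.38 in KO1134.

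*Iglv1* was also compared between areas of a section. Bins were set to a lymph-node-like area where *Cd79a*, *Cd79b* and *Ms4a1*, genes of the B cell receptor complex and B cell surface, outnumbered the 6 thymus genes in the surrounding 7 × 7 bins, and to a thymus area where thymus genes held at least 50% of their section-wide share. KO1134 had 8649 thymus bins, 1959 lymph-node-like bins and 1401 others, KO1308 had 13392, 449 and 2300, and WT1101 had 24692, 0 and 2414. Of the member UMIs, 80 of 97 kappa and 194 of 238 lambda UMIs lay in the thymus area of KO1134, 46 of 61 and 192 of 226 in that of KO1308, and 202 of 209 and 95 of 95 in that of WT1101. *Iglv1* per 1000 *Iglc* UMIs was 18.6 (15.6 to 21.9) in the thymus area of KO1134 and 2.85 (1.74 to 4.41) in its lymph-node-like area, although that area held 46.7% of the *Iglc* UMIs of the section. In KO1308 the values were 24.6 (20.9 to 28.9) and 15.6 (8.50 to 26.1), whose intervals overlap, and WT1101 had no such area. This contrast depended on the denominator. Against *Igkc* the areas of KO1134 differed little, with 140 *Iglv1* UMIs beside 70324 *Igkc* UMIs in the thymus area and 20 beside 10666 in the lymph-node-like area. In KO1308 the order reversed against *Igkc*, with 153 beside 40695 in the thymus area and 14 beside 2240 in the lymph-node-like area. That order rests on 14 UMIs, and no interval was computed for it. All *Igkv* genes per 1000 *Igkc* were 3.63 (3.19 to 4.10) in the thymus area and 5.16 (3.88 to 6.71) in the lymph-node-like area of KO1134, and 3.71 (3.14 to 4.35) and 8.93 (5.45 to 13.8) in KO1308. In the lymph-node-like area of KO1308 *Igkv13-84* supplied 7 of the 20 *Igkv* UMIs, 5 of them in 1 bin. That bin held 2 *Igkc* UMIs, and its leading heavy constant gene was *Ighm* with 6 of 11 UMIs. In the thymus area alone, the effective number of *Igkv* genes was 42.4, 34.3 and 8.81. In WT1101 *Igkv8-28* supplied 149 of the *Igkv* UMIs of that area (55.2%), and a value without it was not computed there.

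Bins with 3 or more UMIs of 1 V gene were rare, with 9 in KO1134, 4 in KO1308 and 2 in WT1101. The fullest in KO1134 held 5 UMIs of *Igkv5-43* beside 40 *Igkc* UMIs, and *Ighg2c*, the constant gene of the IgG2c class, made up 90.2% of its heavy constant UMIs. In KO1134 *Igkv5-43* had 7 of its 21 UMIs in 1 window of 5 × 5 bins. That window held 0.426% of the *Igkc* UMIs of the section. The 3 *Iglv1* bins of this kind in KO1134 were led by *Ighg2c* (98.6% and 88.5%) and *Igha* (100%), the constant gene of IgA. They held 128, 99 and 66 *Igkc* UMIs but 3, 7 and 0 *Iglc* UMIs, and the *Iglv1* bin of KO1308 held 42 and 0.

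Bins with V genes were richer in plasma cell transcripts than the tissue as a whole. They also held more *Igkc*, and *Jchain* was not compared with bins of like *Igkc* content. The values therefore describe bins rich in immunoglobulin RNA and cannot be tied to a V gene. In WT1101 the 140 bins with *Igkv8-28* held 28 *Igkc* UMIs on average, beside 1.44 over all tissue bins, and *Jchain*, which links IgA and IgM units, was at 1115 CPM beside 121. The 6 B cell genes (*Cd79a*, *Cd79b*, *Ms4a1*, *Fcmr*, *Cr2* and *Bank1*) were at 53.1 CPM in those bins beside 51.4 over all tissue. The heavy constant UMIs of the bins were *Igha* for 59.97%, *Ighm* for 17.1% and *Ighg2b* for 16.5%. In bins without the gene at like *Igkc* content they were 55.7%, 21.5% and 14.7%, a similar mix. Since a bin can hold several cells, the classes used together with the gene cannot be told from these shares. In other V gene bins the B cell genes were higher than over all tissue, as for *Igkv3-4* in KO1134 (529 beside 286 CPM), *Igkv3-1* in KO1308 (387 beside 165) and *Igkv12-44* and *Iglv3* in WT1101 (111 and 114 beside 51.4), or lower, as for *Igkv3-2* in KO1134 (84.5 beside 286). *Iglv1* bins had *Jchain* at 1146, 1368 and 1103 CPM beside 405, 773 and 121 over all tissue of KO1134, KO1308 and WT1101. Their *Igha* shares were 46.4%, 44.99% and 55.3%, beside 51.0%, 53.9% and 57.9% in bins of like *Igkc* content. *Igkv12-44* in WT1101 was found in 15 bins in which *Igha* made up 87.5% of heavy constant UMIs, beside 59.4%, and *Igkv14-111* in 10 bins in which *Ighg2b* made up 64.6%, beside 11.6%. A few rich bins can set such shares.

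Cell type content differed between the KO sections and the WT section beside these results, and its part in them was not tested. Of the 13 genes of the B cell receptor list, which holds the signalling partners, surrogate light chain and assembly factors of the receptor, 10 were at least 2-fold higher and 1 lower in KO1134, and 8 higher and 2 lower in KO1308, where of all genes tested 18.9% and 8.38% were higher and lower in KO1134 and 25.8% and 5.28% in KO1308, with median ratios of 2.95 and 3.55. *Cd79a*, the signalling subunit that carries the receptor's message, was at 120, 59.1 and 14.6 CPM, and *Blk*, a B cell kinase, at 42.0, 16.3 and 4.12 CPM. All 6 B cell genes were at least 2-fold higher in both KO sections, and their summed level was 286, 165 and 51.4 CPM. These levels are over all tissue, with 1959 lymph-node-like bins in KO1134, 449 in KO1308 and 0 in WT1101. *Cd79a*, *Cd79b* and *Ms4a1*, which are in this list, also defined those bins, and a level without them was not computed. The 7 plasma cell genes were at 562, 1022 and 244 CPM, of which 4 and 5 were 2-fold higher, with *Jchain* the most abundant in each section. *Jchain* alone was at 405, 773 and 121 CPM, so it set most of the sum in the KO sections. *Xbp1*, of the same list, went the other way in KO1134, with ratios to WT of 0.827 (0.782 to 0.873) in KO1134 and 1.33 (1.26 to 1.41) in KO1308. *Prdm1*, a master regulator of plasma cells, was at 8.13, 6.65 and 2.93 CPM. Of the B cell precursor genes, which T cell precursors share in part, 4 of 6 were 2-fold lower in KO1134 and 5 of 6 in KO1308. *Vpreb1*, a part of the surrogate light chain, had 83, 55 and 378 UMIs in KO1134, KO1308 and WT1101. Its ratios to WT were 0.286 (0.223 to 0.364) and 0.336 (0.248 to 0.446). *Igll1*, another part of that chain, was higher in KO1134 at 19 against 9 UMIs, a ratio of 2.75 (1.19 to 6.91). *Rag1*, which cuts V genes for joining, was at 30.8, 286 and 652 CPM, and *Dntt*, which adds bases at the joints, was the most abundant of the list in each section. *Vpreb2* was at 0 UMIs in KO1308 against 5 in WT1101, with a ratio interval of 0 to 2.52. It is counted as lower in KO1308 in both this list and the B cell receptor list on these few UMIs. Genes of germinal centre B cells had no common direction: *Mef2b* was at 42.5, 48.4 and 77.4 CPM, *Gcsam* at 17.8, 5.40 and 3.77, *S1pr2* at 15.9, 12.5 and 10.2, and *Mybl1* at 2.73, 7.39 and 4.98. The T cell list, led by *Trac* in KO1134 and *Cd3d* in the others, was at 962, 1081 and 1933 CPM, and the myeloid list, led by *Lyz2* or *Cst3*, was at 2626, 1506 and 1102 CPM.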

How the data were processed

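The thymus sections were assayed with the BMKMANU S1000 kit, which captures poly(A) RNA on barcoded spots. The deposited values are whole-number UMI counts of each gene in each spot, not normalized, which the authors made with BSTMatrix and STAR on GRCm38. How reads matching several genes, or a strand, were counted is not given in the sources used here. Spots, 4.8 µm apart, were summed in 27 µm bins, and bins with at least 300 genes and at most 30% mitochondrial UMIs in connected groups of at least 200 bins were tissue, which left 0.37%, 16.61% and 2.42% of the UMIs of KO1134, KO1308 and WT1101 outside. Genotypes were not tested against each other, since there was 1 WT section. Intervals were exact Poisson for CPM, exact binomial (Clopper-Pearson) for shares and exact conditional binomial for ratios. Named *Igkv* genes were those with the 5 highest mean shares or the 3 highest shares in a section, and every *Iglv* member; *Igkv3-2*, *Igkv13-84* and genes under the minimum were named after their values were seen. The members and lists were chosen with earlier results of these data known. Clustering of lambda genes, other references for the pair index and ratios to constant genes were added after seeing the data. Alternatives were bin widths, areas, minima of 0 and 100 UMIs, all spots, and leaving out a section. Statistics were tested on simulated data. One gene of the germinal centre list is not reported here. All 348 V identifiers matched GENCODE M21. Python 3.11.15, numpy 2.4.6, pandas 2.3.3, scipy 1.17.1, edlib 1.3.9 and matplotlib 3.10.9 were used.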

Additional observations from a re-analysis of the deposited data

How the results depend on the processing

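The minimum of 20 UMIs decided most kappa values. Without it, *Igkv* levels were 10.6 (KO mean) and 6.90 CPM (WT) in place of 3.29 and 5.15, the effective number of *Igkv* genes was 42.3 and 8.90 in place of 6.74 and 2.94, and the share of *Igkv8-28* in WT was 54.6%. With a minimum of 100 UMIs the one kappa gene left was *Igkv8-28*, so the KO level was 0 CPM, WT was at 3.77 CPM with an effective number of 1, the *Igkv8-28* and *Igkv8* shares were 100% and the *Igkv3* share was 0%, and no KO evenness or share could be computed. Without the leading member of each section the effective number was 5.91 (KO mean, from 6.68 in KO1134 and 5.15 in KO1308) and 6.40 (WT), so WT lay between the KO sections, whereas over all *Igkv* genes it stayed lowest (47.5, 38.1 and 27.1). The KO mean share of V UMIs in the thymus area, 82.4%, was 80.3% with 20 µm and 84.2% with 50 µm bins. Leaving out either KO section gave KO values of 3.12 to 3.47 CPM for *Igkv*, effective numbers of 6.01 to 7.47 and *Iglv1* shares of 69.3% to 79.2%. For *Iglv* it gave 7.65 CPM without KO1308 and 12.9 without KO1134, and for the *Igkv3* share of members 34.0% and 57.4%. With all sections kept, 59 alternative values (the KO 5.91 among them) stayed within 1 SD of the KO sections or within the WT counting interval. With 2 KO sections a value without one of them lies within 1 SD by construction. The same-bin pair index of *Igkv8-28*, 2.58, was 4.04 with 20 µm and 2.75 with 50 µm bins, 1.80 against all other *Igkv* genes and 1.58 against *Igkc*. Heavy and light chain pairing was not run under its alternatives, as no *Ighv* gene reached the minimum. No paired analysis was possible because the labels give no replicate numbers and tie no KO mouse to the WT mouse. With 1 WT mouse, the WT values have no replicate check, and kappa members other than *Igkv8-28* rest on at most 21 UMIs per section.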

Other observations

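Genes seen in 1 section only were more frequent in KO1308 than elsewhere: 15 genes with at least 100 UMIs there had 0 in the tissue of both other sections, among them *2610306M01Rik*, *Cep83os* and *Ndufb1-ps*. The count was 1 in KO1134 (*Gm31497*) and 1 in WT1101 (*Igkv8-28*). They were chosen after their values were seen, and why they differ was not tested.

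*Ighe*, the constant gene of IgE, had 3 UMIs in KO1134, 168 in KO1308 and 127 in WT1101, so the KO sections lay on either side of WT (9.55 and 0.0964 against 3.13 CPM). *Ighd*, the constant gene of IgD on naive B cells, had 1542, 308 and 114 UMIs, at 49.5, 17.5 and 2.81 CPM. Of all light chain constant UMIs, lambda made up 15.3%, 15.1% and 30.1% in KO1134, KO1308 and WT1101, and of all light chain V UMIs 42.7%, 54.9% and 26.7%, but 44.5% in WT1101 when *Igkv8-28* is left out. Outside the tissue there were 1, 30 and 6 *Igkv* and 0, 24 and 3 *Iglv* UMIs in KO1134, KO1308 and WT1101. Per UMI the *Igkv* level there was 8.55, 8.56 and 5.97 CPM, beside 10.3, 10.8 and 6.90 on the tissue, and that of *Iglv* was 6.85 in KO1308 and 2.98 in WT1101, beside 13.1 and 2.51.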
